A study of Rattus norvegicus with 36 samples.

Results

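The genes described are 5 taken as markers of GABA or glutamate neurons, out of 32402 genes listed in the count tables. They were given by identifier, and the set was chosen with earlier results of these data known. Gad1 (ENSRNOG00000000007) and Gad2 (ENSRNOG00000018200) encode the glutamate decarboxylases that make GABA. Slc32a1 (ENSRNOG00000015393) encodes the vesicular GABA transporter, Pvalb (ENSRNOG00000006471) the calcium-binding protein parvalbumin, and Slc17a7 (ENSRNOG00000020650) the vesicular glutamate transporter VGLUT1. The symbols came with the definition of the set, because the count tables hold identifiers alone and the reference table used here pairs 0 of them with a symbol. All 5 genes were listed in every library, and all 5 were among the 15555 genes that passed the filter on low counts.

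The tissue was nucleus accumbens, taken from 9 rats of the Sprague-Dawley strain aged 8 weeks, in 3 groups of 3. Saline rats had 4 injections of physiological serum, 15 days of withdrawal and a last serum injection. CPPE and nCPPE rats had cocaine in place of serum, with a last dose of 5 mg/kg, and afterwards either expressed (CPPE, also labelled dependent) or did not express (nCPPE, non dependent) the conditioned place preference, a test of how far an animal seeks the compartment it has linked with the drug. The preference was measured for 18 min straight after the last injection, and the series text adds an extinction phase of 12 days. The sources used here give neither the criterion that told CPPE from nCPPE rats nor their sex. The extraction protocol in the labels names the caudate putamen beside the nucleus accumbens, while every library is labelled nucleus accumbens.

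GABA is the main inhibitory transmitter of the brain. It is made from glutamate by 2 decarboxylases: the product of Gad1 (GAD67) supplies most of the GABA of the cell body, and that of Gad2 (GAD65) sits at nerve terminals. The product of Slc32a1 then loads GABA into synaptic vesicles. In the striatum, of which the accumbens is the ventral part, nearly all neurons are GABAergic: spiny projection neurons make up most of them, and a minority of fast-spiking interneurons contain parvalbumin. Glutamate reaches the accumbens in axons whose cell bodies, where most of the mRNA lies, are in cortex, hippocampus, amygdala and thalamus. Slc17a7 is a classic marker of the cortical and hippocampal cells among them.

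The promoter sequences of Slc17a7, which varied most between rats, and of Slc32a1 and Gad2, which parted in one rat, are shown for reference, from RefSeq on build GRCr8. The table matched all 5 genes by symbol. Each stretch is the part of a window, 250 bases before to 50 after a transcript start, that lies before the annotated start of the gene. The window of Pvalb lies inside its annotated gene and that of Gad1 mostly so, and neither is printed. All are on the + strand and read 5′ to 3′, with capitals for GGGCGG on either strand (the GC box, the site bound by Sp1-type factors), overlapping copies included.
Slc17a7, chr1:104785955-104786171: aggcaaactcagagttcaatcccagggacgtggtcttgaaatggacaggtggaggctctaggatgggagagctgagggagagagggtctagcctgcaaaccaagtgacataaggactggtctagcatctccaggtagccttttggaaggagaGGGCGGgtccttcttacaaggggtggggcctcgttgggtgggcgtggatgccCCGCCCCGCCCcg
Slc32a1, chr3:167686995-167687244: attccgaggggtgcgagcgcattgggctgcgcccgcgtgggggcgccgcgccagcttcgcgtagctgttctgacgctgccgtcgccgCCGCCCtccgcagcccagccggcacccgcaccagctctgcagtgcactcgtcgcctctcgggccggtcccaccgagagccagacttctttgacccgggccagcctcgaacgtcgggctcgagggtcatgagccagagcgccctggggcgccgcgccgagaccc
Gad2, chr17:89671468-89671717: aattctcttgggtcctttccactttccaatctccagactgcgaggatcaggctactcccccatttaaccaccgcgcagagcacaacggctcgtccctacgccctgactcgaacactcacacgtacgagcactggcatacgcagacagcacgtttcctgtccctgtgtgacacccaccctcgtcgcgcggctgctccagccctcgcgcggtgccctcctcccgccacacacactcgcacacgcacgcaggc
The Slc17a7 stretch of 217 bases held 3 GC boxes, and 26.9% of 33469 rat promoters held at least 1 in the same stretch of the window. The Slc32a1 stretch held 1 and the Gad2 stretch 0, where 30.5% of promoters held at least 1 over 250 bases. CANNTG (the E-box, which reads alike on both strands) was found at 2 places before Slc17a7 and at 0 before Slc32a1 and Gad2, beside 60.6% and 65.5% of promoters with a match over 217 and 250 bases. TATAAA, on either strand, was in 0 of the 3 stretches. CpG pairs numbered 34 in the Slc32a1 stretch, 22 in that of Gad2 and 7 in that of Slc17a7. These matches describe the letters of the reference genome, and no binding or methylation was measured.

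Levels are given as CPM, the usual counts-per-million scale, with library sizes adjusted by TMM (trimmed mean of M values). Depth was 27724289 to 39067715 counts per rat. The library of Saline 2 stood apart across the transcriptome: 4374 tested genes were more than 2-fold away from the average of the remaining rats, where any other rat had 154 to 385 such genes. Differences between groups that Saline 2 moved strongly are given with and without it. In bulk tissue, fewer cells of a type and less RNA per cell cannot be told apart.

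Gad1, the GABA enzyme of the cell body, was at one level in most rats and higher in a pair of cocaine rats, 1 from each cocaine group. The Saline rats had 430.2, 436 and 441 CPM. The CPPE rats had 417, 629 and 455 CPM, and the nCPPE rats 436, 400.0 and 651 CPM. CPPE 2 and nCPPE 3 thus stood above the other rats, 1.44- and 1.49-fold over the median of the rest, and the groups overlapped. These distances were in the upper tail of the libraries concerned, where 2.76% of tested genes in CPPE 2 and 4.53% in nCPPE 3 lay at least as far up. Without Saline 2, 86.3% of 13767 genes averaging at least 1 CPM had a smaller SD of log2 CPM than Gad1. The means were 436 ± 5.33 CPM for Saline, 500.2 ± 113 CPM for CPPE and 496 ± 136 CPM for nCPPE (SD, n = 3 each).

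Gad2, the GABA enzyme of the terminal, was the steadiest of the 5 genes outside Saline 2. The CPPE rats had 672, 840.3 and 718 CPM, and the nCPPE rats 739, 674 and 827 CPM. CPPE 2 and nCPPE 3 were again the highest, by less than for Gad1. Saline 1 and Saline 3 had 774 and 719 CPM, within that range, and Saline 2 had 507 CPM, below every other rat. Saline 2 lay at 0.695 of the median of the others, a fall that 31.3% of tested genes in that library matched or exceeded. Without Saline 2 the coefficient of variation over 8 rats was 8.54%, beside 13.8% over 9.

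Slc32a1, the transporter that fills vesicles with GABA, was highest in the rat whose Gad2 was lowest. Saline 2 had 333 CPM, while Saline 1 and Saline 3 had 131 and 147 CPM, the lowest and the third lowest of the 9 rats. The CPPE rats had 153, 178 and 156 CPM and the nCPPE rats 164, 144 and 219 CPM. Saline 2 was 2.16-fold over the median of the others, and 6.07% of the genes in its library lay at least as far up. Its neighbour in the order, nCPPE 3 at 219 CPM, was the other rat clear of the rest, and the remaining 7 rats lay between 131 and 178 CPM.

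The balance among the 3 GABA genes was therefore different in Saline 2. This library differed at large, with 4374 tested genes more than 2-fold away from the average of the remaining rats. How often other gene pairs shifted as far in it was not tested. Read ratios within a library need no scaling between libraries, though they depend on transcript lengths and are no ratio of molecules. Saline 2 had 65.8 Slc32a1 reads per 100 Gad2 reads, and the other 8 rats had 17.0 (Saline 1) to 26.5 (nCPPE 3). It had 76.4 Slc32a1 reads per 100 Gad1 reads, where the others had 28.3 to 37.5. Gad1 reads per Gad2 read were 0.860 in Saline 2, 0.788 in nCPPE 3, 0.748 in CPPE 2 and 0.556 to 0.634 in the rest. On this last ratio Saline 2 was the end of a spread that nCPPE 3 and CPPE 2 shared, and on the ratios with Slc32a1 it was far from every other rat. The groups overlapped on each ratio.

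**Figure D1:**
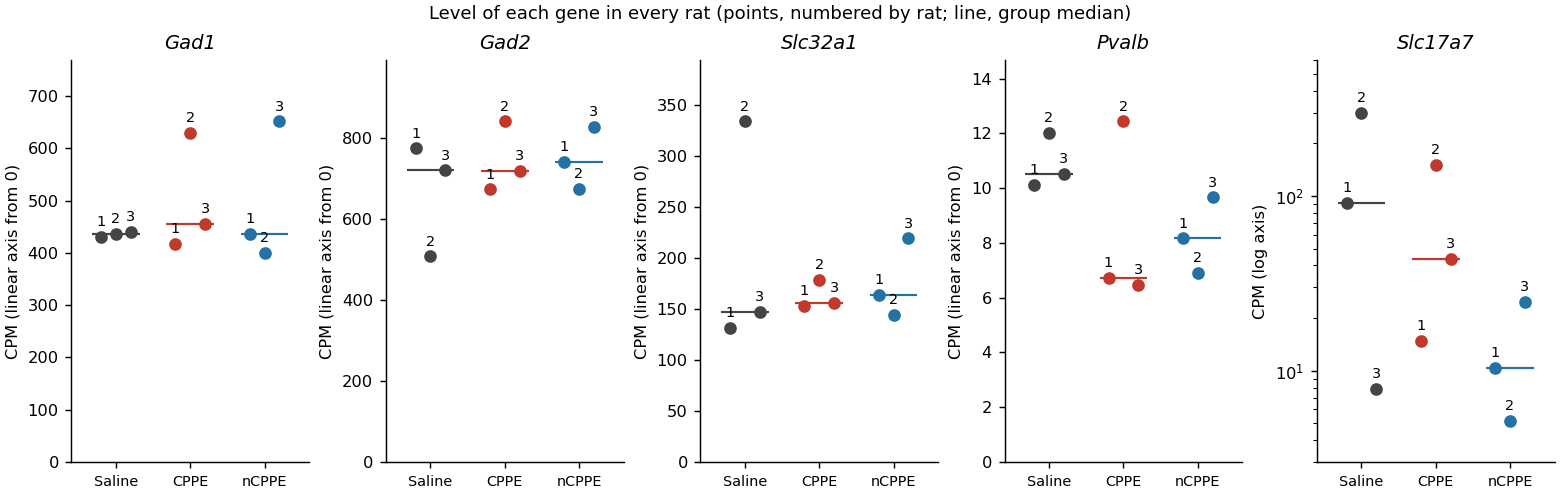
CPM of each gene (vertical axis, linear from 0 except for Slc17a7, which has a log axis) in every rat by group, with points numbered by rat and a line at the group median. Gad1 is high in CPPE 2 and nCPPE 3, Slc32a1 in Saline 2 at 333 CPM, and Slc17a7 runs from 5.15 to 298 CPM.

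Pvalb, the marker of fast-spiking interneurons, was covered by 198 to 490 reads per rat, fewer than any of the 3 GABA genes. The Saline rats had 10.1, 12.0 and 10.5 CPM. The CPPE rats had 6.73, 12.4 and 6.45 CPM, and the nCPPE rats 8.16, 6.91 and 9.66 CPM. All 3 nCPPE rats were below all 3 Saline rats, and 4.02% of tested genes had no overlap between these groups. CPPE 1 and CPPE 3 were also below the Saline rats, but CPPE 2 was the highest of all 9. Counting error alone spans the gap between the nearest rats: the 95% Poisson interval was 8.60 to 10.8 CPM for nCPPE 3 and 8.98 to 11.3 CPM for Saline 1. Such intervals cover counting error only.

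Slc17a7, the glutamate marker, was among the most variable genes of the series, and its variation crossed the groups. The Saline rats had 90.9, 298 and 7.88 CPM, from 2626, 8314 and 219 counts. The CPPE rats had 14.8, 151 and 43.6 CPM, and the nCPPE rats 10.4, 5.15 and 24.7 CPM, the lowest of them from 161 counts. In order, Saline 2 stood highest, then CPPE 2, Saline 1, CPPE 3, nCPPE 3, CPPE 1, nCPPE 1, Saline 3 and nCPPE 2. Every group spanned at least 4.79-fold, Saline rats spanned 37.8-fold, and all 9 rats 57.9-fold. The 3 group ranges overlapped, with Saline 3 between nCPPE 1 and nCPPE 2, so no neighbours in the order of group means (132, 69.8 and 13.4 CPM for Saline, CPPE and nCPPE) were separated beyond their spread.

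The spread of Slc17a7 far exceeded that of the GABA genes and of genes in general. Over 9 rats the SD of its log2 CPM was 2.02, beside a median of 0.27 over 13767 genes averaging at least 1 CPM, and only 3 of these genes, itself included, varied as much. Without Saline 2 its SD was 1.72, beside a median of 0.13, and 11 genes varied as much. The same SD without Saline 2 was 0.27 for Gad1, 0.12 for Gad2, 0.22 for Slc32a1 and 0.35 for Pvalb. Counting error was small against this spread, at most 15.8% of the level for Slc17a7 (half-width of the 95% Poisson interval in nCPPE 2). The 4 technical replicates of a rat differed at most 1.49-fold for this gene.

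Seen library by library, several rats and not Saline 2 alone carried high Slc17a7. In Saline 2 it was 15.1-fold over the median of the other rats, and 2 of 15555 genes, itself included, lay that far up. In CPPE 2 it was 7.65-fold over the median of the others, with 5 genes that far up, and in Saline 1 it was 4.61-fold over, with 7 genes. CPPE 3 was 2.21-fold over, which 1.06% of genes matched or exceeded. At the other end nCPPE 2 was at 0.151 of the median of the others, with 5 genes that far down, and Saline 3 at 0.231, with 24 genes. Set against the GABA enzymes in the same library, Slc17a7 had 31.6 reads per 100 reads of Gad1 and Gad2 in Saline 2, 10.3 in CPPE 2, 7.55 in Saline 1, 3.72 in CPPE 3 and 0.479 to 1.67 in the other 5 rats. CPPE 2 and Saline 1 had 21.2 and 17.0 Slc32a1 reads per 100 Gad2 reads, where Saline 2 had 65.8, and the value of Saline 1 was the lowest of all rats. CPPE 2 did share with Saline 2 a raised ratio of Gad1 to Gad2 reads (0.748 and 0.860). High Slc17a7 therefore occurred both with and without the high ratio of Slc32a1 to Gad2 reads seen in Saline 2.

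**Figure D2:**
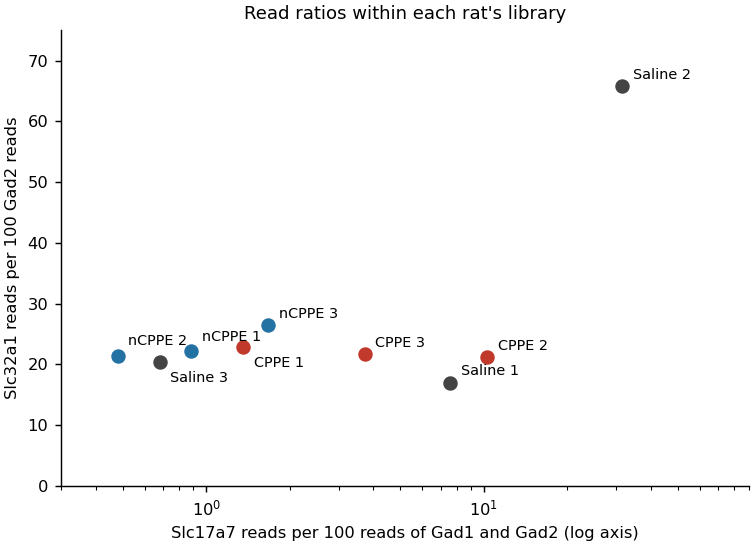
Slc32a1 reads per 100 Gad2 reads (vertical axis, linear from 0) against Slc17a7 reads per 100 reads of Gad1 and Gad2 (horizontal log axis), 1 point per rat. Saline 2 stands alone at 65.8 and 31.6, while the other 8 rats spread widely along the horizontal axis and lie between 17.0 and 26.5 on the vertical one.

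The genes of the set had reads in every rat, which shows that they were detected and not which cells they came from. Gad1, Gad2 and Slc32a1 were each covered by at least 3799 reads in every rat, and the accumbens is known as a GABAergic tissue. Slc17a7 had reads in every rat too, down to 161. Whether these came from pallial tissue in the sample was not tested, because other markers of glutamatergic neurons and of spiny neurons could not be paired with the identifiers, and a single gene cannot tell other tissue from local expression.

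CPPE and nCPPE rats, equal in cocaine treatment, were compared to ask what went with expressing the preference. edgeR called 0 of the 5 genes at an adjusted p below 0.05 (background 0% of 15555 genes), and 0 of the 5 had overlap-free groups, where 8.49% of all tested genes did. At an unadjusted p below 0.05 edgeR had 0 of the 5, beside 0.54% of all tested genes. The CPPE mean of Slc17a7 was 69.8 ± 71.7 CPM and the nCPPE mean 13.4 ± 10.1 CPM (SD over 3 rats), a log2 difference of 2.38 ± 1.22 (SE) with a 95% interval of -0.39 to 5.15 (edgeR quasi-likelihood test, unadjusted p = 0.0835, adjusted p = 1.0). Without CPPE 2 the log2 difference was 1.12. Without Saline 2, which enters through the shared spread, edgeR gave Slc17a7 an unadjusted p of 0.0390 (adjusted p = 0.971, 0.971 to 1.0 over its 17 alternatives), and 3.53% of all tested genes were then below 0.05. When edgeR was fitted to the cocaine rats alone, the unadjusted p was 0.0189 (adjusted p = 0.997), beside 2.81% of genes. The GABA genes lay close together: the log2 difference was 0.01 ± 0.22 for Gad1, with a 95% interval of -0.48 to 0.50, and -0.01 ± 0.18 for Gad2, with -0.42 to 0.41. For Slc32a1 it was -0.11 ± 0.34 and for Pvalb 0.05 ± 0.27. The intervals of Gad1 and Gad2 leave out a 2-fold difference in either direction (a log2 value of 1), as do those of Slc32a1 (-0.88 to 0.65) and Pvalb (-0.55 to 0.66). These intervals use a spread shared by all 9 rats, Saline 2 included.

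CPPE rats were set against Saline rats to see what cocaine conditioning and reinstatement left in animals with the preference. edgeR again called 0 of the 5 genes (background 0%), and 0 were without overlap, beside 5.72% of all tested genes. None of the 5 had an unadjusted p below 0.05, which 0.894% of tested genes had. The log2 differences were 0.20 ± 0.22 for Gad1, 0.16 ± 0.18 for Gad2, -0.33 ± 0.34 for Slc32a1, -0.35 ± 0.27 for Pvalb and -0.92 ± 1.16 for Slc17a7 (± SE, edgeR adjusted p = 0.882 for each). Saline 2 set the sign of several of them. Without it the Slc32a1 difference was 0.22, that of Slc17a7 0.50 and that of Gad2 -0.0051, with an edgeR adjusted p of 0.845, 0.951 and 0.996. Without CPPE 2 the Pvalb difference was -0.72 (edgeR unadjusted p = 0.00737, adjusted p = 0.956, 0.576 to 1.0 over its 17 alternatives), and that of Slc17a7 was -2.18. At that setting 0.693% of all tested genes had an unadjusted p below 0.05. CPPE 2 had the most Pvalb of all rats, so leaving it out had to lower that difference, and the p is no separate support.

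nCPPE rats against Saline rats posed the same question for animals without the preference, with the Saline rats shared between both comparisons. edgeR called 0 of the 5 genes (background 0%). Pvalb alone had no overlap between groups, at a background of 4.02%. Its nCPPE mean was 8.24 ± 1.38 CPM and its Saline mean 10.9 ± 1.00 CPM (SD over 3 rats), a log2 difference of -0.40 ± 0.27 (SE, edgeR unadjusted p = 0.169, adjusted p = 0.937). Slc17a7 had the widest difference, 13.4 ± 10.1 CPM against 132 ± 149 CPM, a log2 difference of -3.30 ± 1.26 with a 95% interval of -6.17 to -0.43. Its unadjusted p of 0.0288 was the only one of the 5 below 0.05 in edgeR, where 1.15% of all tested genes were, and its adjusted p was 0.937. Saline 3 lay among the nCPPE rats, and without Saline 2 the log2 difference was -1.88. Gad1 and Gad2 differed by 0.19 ± 0.22 and 0.16 ± 0.18, and Slc32a1 by -0.22 ± 0.34. Without Saline 2 the Gad2 difference was 0.00090 and that of Slc32a1 0.33.

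With both cocaine groups pooled, 6 rats stood against 3 Saline rats, and these are the same values used above. edgeR called 0 of the 5 genes (background 0%), and 0 were free of overlap, beside 1.03% of all tested genes. At an unadjusted p below 0.05 there were also 0 of the 5, beside 1.24% of tested genes. Slc17a7 differed by -2.11 ± 0.96 (SE) on the log2 scale (edgeR unadjusted p = 0.0565, adjusted p = 0.825), and by -0.69 without Saline 2. Pvalb differed by -0.37 ± 0.23, with CPPE 2 above every Saline rat and the other 5 cocaine rats below them. Without CPPE 2 it differed by -0.56 (edgeR unadjusted p = 0.00755, adjusted p = 0.897, 0.482 to 0.987 over its 16 alternatives). Leaving out the highest rat again had to lower the difference, and 1.22% of all tested genes then had an unadjusted p below 0.05. Gad1 differed by 0.19 ± 0.19, Gad2 by 0.16 ± 0.16 and Slc32a1 by -0.27 ± 0.29. Without Saline 2 the Gad2 difference was -0.0021 and that of Slc32a1 0.28.

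Other tools made no call on the set either. DESeq2 called 0 of the 5 genes in each of the 4 comparisons, with an unadjusted p below 0.05 for 1 gene in nCPPE against Saline, beside 1.09% of all 22393 genes it fitted, and for 0 in the others, beside 0.612% (CPPE against nCPPE), 0.969% (CPPE against Saline) and 1.31% (cocaine against Saline). The gene of the set below 0.05 was Slc17a7 (DESeq2 unadjusted p = 0.00804), which was not called. DESeq2 called 1 gene in all for CPPE against nCPPE and 1 for nCPPE against Saline, neither of the set. limma-voom with quality weights called 0. Unadjusted, it put 1 gene below 0.05 in CPPE against Saline, 1 in nCPPE against Saline, 2 in cocaine against Saline and 0 between the cocaine groups, beside 7.42%, 7.85%, 9.06% and 4.11% of all tested genes. Pvalb had a limma-voom unadjusted p of 0.0278 for CPPE and 0.0254 for cocaine (adjusted p = 0.659 and 0.538). Slc32a1 had 0.0430 for nCPPE and 0.0490 for cocaine (adjusted p = 0.629 and 0.550), with a sign opposite to that in edgeR with all rats.

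**Figure D3:**
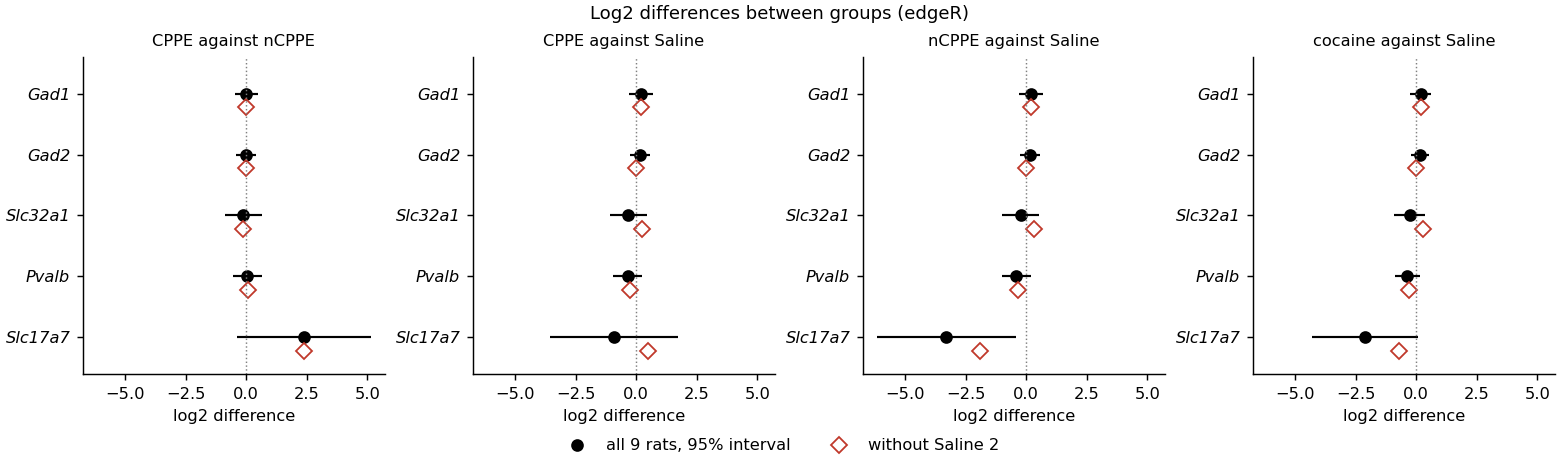
Log2 differences of the 5 genes in the 4 comparisons (horizontal axis) from edgeR with all 9 rats (filled circles, bars for the 95% interval) and without Saline 2 (open diamonds). The bars of Slc17a7 are the widest in each comparison, and Slc32a1 changes sign in the 3 comparisons with Saline once Saline 2 is left out.

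Gad1 varied with Gad2 and with Slc32a1 outside Saline 2 by Pearson r, and r was lower without a pair of rats. Over the other 8 rats Gad1 and Gad2 had a Pearson r of 0.88 (exact permutation p = 0.00476, two-sided, adjusted over 10 pairs 0.0320) and a Spearman rho of 0.71 (exact permutation p = 0.0576, adjusted 0.192). Gad1 and Slc32a1 had an r of 0.86 (exact permutation p = 0.00640, adjusted 0.0320) and a rho of 0.79 (exact permutation p = 0.0279, adjusted 0.184). Without CPPE 2 and nCPPE 3, the rats farthest from the median of Gad1, r was 0.58 and 0.29. Leaving out the farthest rats narrows the range of Gad1 and tends to lower r. This step therefore cannot tell whether the relation rested on them. With Saline 2 included r was 0.59 for Gad1 and Gad2 and 0.30 for Gad1 and Slc32a1 (exact permutation p = 0.112 and 0.435, adjusted 0.312 and 0.544). Slc17a7 passed the adjusted threshold with none of the other 4 genes, over 8 or 9 rats. Its r over 8 rats was 0.71 with Gad2, 0.54 with Gad1, 0.49 with Pvalb and 0.14 with Slc32a1 (exact permutation p adjusted over 10 pairs 0.136, 0.247, 0.261 and 0.756), and its rho was 0.62, 0.52, 0.29 and 0.31 (adjusted 0.287, 0.360, 0.556 and 0.556). The labels name no batch within which these relations could be recomputed.

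Some other genes followed Slc17a7 closely, as some did each of the other members. Over the 8 rats without Saline 2, 58 of 13758 genes averaging at least 1 CPM had an r of at least 0.9 with Slc17a7, and over all 9 rats 55 of 13766 did. An r of -0.9 or below was found for 14 and 9 genes. Over the same 8 rats, 209 genes reached an r of 0.9 with Gad1, 96 with Slc32a1, 64 with Gad2 and 39 with Pvalb. The count for Slc17a7 was thus not particular to it. The likest over 8 rats were ENSRNOG00000007189 (r of 0.99) and ENSRNOG00000007951 (r of 0.99). ENSRNOG00000007189 had 3.43, 7.99 and 1.08 CPM in the Saline rats, 1.26, 3.86 and 1.89 CPM in the CPPE rats and 1.13, 0.704 and 1.66 CPM in the nCPPE rats, so its order over the 9 rats was that of Slc17a7, at a smaller spread. The gene nearest to Slc32a1 over all rats was ENSRNOG00000014252 (r of 0.99). It had 26.4, 83.1 and 29.4 CPM in the Saline rats, 31.6, 37.0 and 31.7 CPM in the CPPE rats and 31.2, 31.1 and 46.5 CPM in the nCPPE rats, with Saline 2 and nCPPE 3 on top as for Slc32a1 itself. The highest r over all 9 rats was 0.97 for Gad1, 0.98 for Gad2 and 0.92 for Pvalb, from genes whose names are likewise not given. These values describe likeness over a few rats that share their outlying libraries.

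The genes that followed Slc17a7 were then read in a rat that had no part in choosing them, a step added after the values had been seen. The step was run for Slc17a7 alone, and the shares given beside it cover all genes, not genes of like spread. Whether genes like the other members carry over as far was not tested. Of the 58 genes chosen without Saline 2, 25 (43.1%) were over 2-fold higher in Saline 2 than the median of the other rats, beside 8.21% of all genes, and 5 (8.62%) were over 2-fold lower, beside 18.9% of all genes. Their median log2 difference was 0.82, beside 0.02 for all genes. For CPPE 2, 57 genes were chosen over the 7 rats other than CPPE 2 and Saline 2, and 15 of them (26.3%) were over 2-fold higher in CPPE 2, beside 0.421% of all genes. For Saline 1, 146 genes were chosen in the same way, and 17 (11.6%) were over 2-fold higher in that rat, beside 0.342% of all genes. The median log2 difference of the chosen genes was 0.26 in CPPE 2 and 0.033 in Saline 1, beside 0.0020 and -0.0038 for all genes. In nCPPE 2, the rat with the least Slc17a7, 10 of 67 such genes (14.9%) were over 2-fold lower, beside 0.625% of all genes. In Saline 3, the next lowest, 4 of 134 such genes (2.99%) were, beside 0.334% of all genes, and their median was -0.0325. In CPPE 3, 4 of 102 such genes (3.92%) were over 2-fold higher, beside 0.64% of all genes. In nCPPE 3, 5 of 123 (4.07%) were over 2-fold higher, beside 0.778%. In CPPE 1, 2 of 85 (2.35%) were over 2-fold lower, beside 0.182%. In nCPPE 1, 4 of 80 (5.00%) were over 2-fold lower, beside 0.211%. In CPPE 2, Saline 1 and nCPPE 2 most of the chosen genes lay within 2-fold. The shares fell at a looser likeness of r of at least 0.8, to 19.0% in Saline 2, 12.6% in CPPE 2 and 2.89% in Saline 1, and in Saline 2 the share over 2-fold lower was then 23.5%.

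**Figure D4:**
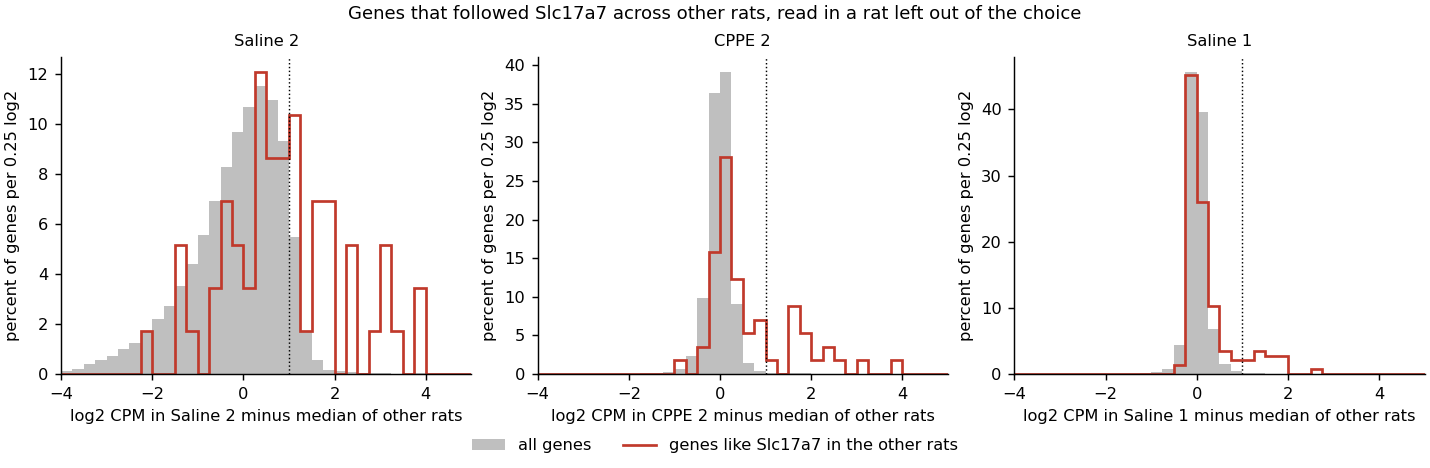
Percent of genes per bin of 0.25 (vertical axis) by log2 CPM in Saline 2, CPPE 2 and Saline 1 minus the median of the other rats (horizontal axis), for all genes (grey) and for genes with an r of at least 0.9 with Slc17a7 over rats other than the one shown and Saline 2 (red line). The median leaves out the same rats. A dotted line marks 2-fold, beyond which lie 43.1%, 26.3% and 11.6% of the chosen genes.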

How the data were processed

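Per the labels' protocols, polyadenylated RNA from 300 ng of total RNA went into libraries of a strand-specific kit (TruSeq Stranded mRNA). The submitters' processing notes name bcl2fastq 2.18.0.12, STAR and HTSeq 0.5.3. Genome build, annotation and strand setting are not given in the sources used, so a gene that overlaps another has uncertain counts. The authors deposited raw read counts by Ensembl identifier, 1 file for each of 4 technical replicates of a rat (36 files). They were summed per rat. Over 45 pairs of gene and rat the chi-square per degree of freedom between technical replicates had a median of 0.531 (0.0316 to 3.39).

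Counts were tested with edgeR 4.0.16 (R 4.3.3): filterByExpr, TMM, quasi-likelihood F-tests with group as the factor over 9 rats, and Benjamini-Hochberg adjustment over 15555 genes. The threshold was an adjusted p of 0.05. Log2 CPM used a prior count of 2. DESeq2 1.42.0 and limma 3.58.1 were alternatives. The edgeR procedure was tested on simulated data. Member pairs were tested by exact permutation of rats. The members and lists were chosen with earlier results of these data known. All 5 members are named whatever their values. The rule also took, for each, the 2 genes with the highest r, of which those of Slc17a7 without Saline 2 and the first of Slc32a1 are printed. Marker lists by symbol matched 0 identifiers and were not used.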

Additional observations from a re-analysis of the deposited data

Results flagged for a closer look

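Among the 6 cocaine rats, CPPE 2 had 150.9 CPM of Slc17a7, while the next, CPPE 3, had 43.6 CPM. The gap to CPPE 3 took 0.736 of the whole range of the 6 rats, above the critical value of 0.625 for a sample far from the others. On a log2 scale the largest gap took 0.367 of the range, below that value. The 5 genes were examined in this way, and chance marks about 1 in 20 such groups.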

How the results depend on the processing

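Every setting tried left 0 of the 5 genes called in the comparisons it was run for: RLE size factors, total counts, no filter on low counts, technical replicate a alone, only the compared groups in the fit (not run for cocaine against Saline, where it is the same fit), DESeq2, limma-voom and each rat left out. With the replicate block (rats of equal number treated as a set) 0 genes were called too, and the Gad2 difference for CPPE against nCPPE turned to 0.0059. Same-numbered rats correlated at -0.469 to 0.277 in their deviations from group means, and 2 of 9 rats correlated best with their own number. These correlations cannot settle whether the numbers mark a shared batch. Deviations within a group depend on one another, and Saline 2 weighs heavily on those of the Saline rats.

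Signs of several small differences depended on single rats. With 1 rat left out, the log2 difference for CPPE against nCPPE ran from -0.19 to 0.26 for Gad1, -0.10 to 0.073 for Gad2, -0.24 to 0.076 for Slc32a1 and -0.32 to 0.22 for Pvalb. For CPPE against Saline it ran from -0.00041 to 0.32 for Gad1, -0.0051 to 0.28 for Gad2, -0.56 to 0.22 for Slc32a1 and -2.18 to 0.50 for Slc17a7. Pvalb stayed negative in the comparisons with Saline: -0.72 to -0.18 for CPPE, -0.53 to -0.29 for nCPPE and -0.56 to -0.29 for cocaine. Slc17a7 kept its sign for CPPE against nCPPE (1.12 to 3.16), nCPPE against Saline (-4.09 to -1.88) and cocaine against Saline (-2.74 to -0.69). For nCPPE against Saline the difference ran from -0.060 to 0.32 for Gad1 and -0.44 to 0.33 for Slc32a1, and for cocaine against Saline from -0.0021 to 0.29 for Gad2 and -0.50 to 0.28 for Slc32a1. limma-voom, which gave Saline 2 a weight of 0.0300, turned Pvalb to -0.13 between the cocaine groups. In the comparison of CPPE with Saline it turned Gad2 to -0.060, Slc32a1 to 0.19 and Slc17a7 to 0.15. It also turned Gad2 and Slc32a1 to -0.018 and 0.27 for nCPPE against Saline, and to -0.039 and 0.23 for cocaine against Saline. For these tools the cause was not tested.

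The distance of Saline 2 from the median of the other rats kept its direction for all 5 genes under RLE, total counts and technical replicate a alone. The number of genes with an r of at least 0.9 moved from 32 to 209 for Gad1, from 626 to 64 for Gad2, from 804 to 96 for Slc32a1 and from 3 to 39 for Pvalb when Saline 2 was left out. A Spearman rho of at least 0.9 in place of r gave 23.2% of genes over 2-fold higher and 26.3% over 2-fold lower in Saline 2, beside 8.21% and 18.9% of all genes. The same rule gave 19.6% over 2-fold higher in CPPE 2 and 6.41% in Saline 1, beside 0.421% and 0.342% of all genes. The median log2 difference of these genes was then 0.23 in CPPE 2 and -0.032 in Saline 1. With 3 rats a group, the interval of Slc17a7 spans several-fold differences. The SD of its log2 CPM, here without a prior count, was 2.67 in Saline, 1.68 in CPPE and 1.13 in nCPPE rats. The wide spread was therefore not that of Saline 2 alone.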
